A study of Capra hircus with 6 samples.

Results

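The genes that take up retinol, turn it into all-trans retinoic acid (ATRA), carry ATRA inside the cell, and break it down were examined in secondary hair follicle dermal papilla cells (SHF-DPCs) of cashmere goats. The set was fixed by gene identifier and has 9 members: STRA6, CRABP1, CRABP2, RDH10, DHRS3, ALDH1A1, ALDH1A2, ALDH1A3, and CYP26B1, which is listed as LOC102187233. Rows were found for 8 of them among the 15944 genes listed in the counts table, and ALDH1A2, which had no row, was not analysed here. The ATRA-treated group (3 libraries) was cultured for 24 h with ATRA at 100 µM, and the control group (3 libraries) received culture medium alone. All cells were wild-type primary cultures, used between passages 4 and 7, from scapular skin of 3-year-old goats. The question was how cells given an excess of ATRA changed the transcripts of the machinery that makes and removes it.

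Cells obtain ATRA from retinol in a pair of oxidation steps. STRA6 is a membrane receptor that lets retinol in from its carrier in blood. RDH10 oxidises retinol to retinaldehyde, DHRS3 reduces retinaldehyde back to retinol, and the enzymes ALDH1A1, ALDH1A2, and ALDH1A3 oxidise retinaldehyde to ATRA, a step that is not reversed. CRABP1 and CRABP2 bind ATRA in the cell, and CRABP2 is known for passing it to the nuclear retinoic acid receptors. CYP26B1, like CYP26A1 and CYP26C1, is a cytochrome P450 that hydroxylates ATRA and so starts its removal. In skin and other tissues the balance of these enzymes is known to set the local level of ATRA.

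Each library held between 35532339 and 38012771 counts, and genes were compared in normalized CPM, the share of a library's reads scaled by edgeR's TMM factors. A gene was called when edgeR's quasi-likelihood test gave it an adjusted p under 0.05. ATRA was accompanied by change across most of the transcriptome, so the members were read against that background: 79.7% of the 12588 genes tested were called, 40.9% higher and 38.7% lower with ATRA. The direction of small changes depended on the scaling, since with library size only 7921 genes were called higher and 2861 lower, against 5151 and 4877 with TMM, and the log₂ fold change (log₂FC) had a median over all genes of 0.52 in place of 0.04.

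Markers of the labelled cell type were uneven. VIM and PDGFRA, general mesenchymal genes, had 595932 to 624742 and 26427 to 28290 counts in the control libraries. Of the dermal papilla markers, ACTA2 had 200752 to 220329 control counts, VCAN 49880 to 55062, and LEF1 468 to 550. In contrast, PROM1, ALPL, and CORIN had 0 or 1 count in every library. The study identified the cells by positive immunofluorescence for α-SMA and CD133, the proteins encoded by ACTA2 and PROM1. Counts of RNA do not measure that staining. SOX2, below the expression filter, had higher counts with ATRA, 10, 16, and 9 against 5, 0, and 2 in the control libraries. The 9 dermal papilla and mesenchymal markers summed to between 27119 and 29702 CPM in the control libraries and between 1752 and 1799 CPM with ATRA, and all 5 tested were lower, LEF1 without a call when library size only was used. ACTA2 fell the furthest of these, to 332 to 397 counts with ATRA (786.7-fold lower), though other actin genes may share its reads, and VCAN fell to 1281 to 1578 counts. The sum of 3 listed leukocyte markers was 9.18 to 12.8 CPM in the control libraries and 41.1 to 44.0 CPM with ATRA. CD14 (6.91 against 31.3 CPM) and CD68 (4.14 against 11.0 CPM) carried this higher sum. ITGAM had 2 counts or fewer in each library, and the leukocyte gene PTPRC had no row. The sum of 4 endothelial markers was also higher with ATRA, 0.322 to 0.556 CPM against 5.24 to 8.03 CPM. The endothelial gene CDH5 had 1 count or fewer in each library. The higher endothelial sum came from PECAM1, also a leukocyte gene, which went from 0 counts in the control libraries to 206 to 340 with ATRA. VWF was not called (log₂FC 0.06, adjusted p = 0.909), and KDR, below the expression filter, had 5, 6, and 10 counts in the control libraries and 2, 1, and 0 with ATRA. The sum of 6 listed keratinocyte markers was 3.11 to 4.98 CPM in the control libraries and 5.37 to 5.97 CPM with ATRA. KRT10, of differentiating keratinocytes, carried this higher sum, while the basal keratinocyte genes, below the filter, had lower counts with ATRA, 20, 14, and 10 against 3, 0, and 0 for KRT14 and 2, 7, and 3 against 0 in every library for KRT5. The smooth muscle and pericyte markers summed to 377 to 385 CPM against 13.4 to 15.7 CPM with ATRA. CSPG4 carried this lower sum, with 381 CPM in the control group and 14.4 CPM with ATRA. MYH11 was not called (log₂FC -0.24), and DES, called lower, and RGS5 had at most 18 counts in any library. The adipocyte markers summed to 0.866 to 1.84 CPM against 2.45 to 3.22 CPM. The melanocyte marker PMEL had 118 to 137 counts against 85 to 97 counts, and TYR, DCT, and MLANA had no row. The part of these shifts in the results below was not tested. Fewer cells of a type and less RNA per cell cannot be told apart in bulk samples.

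Of the 9 members, 5 had enough reads to be tested, and 4 of these 5 were called, a share close to that of all genes. Among the members tested, 3 were higher (CYP26B1, DHRS3, and CRABP2) and 1 was lower (RDH10) with ATRA. The libraries of the groups did not overlap for 4 of the 5, against 80.1% of all genes tested. A change of more than 2-fold with an unadjusted p under 0.05 was reached by 3 of the 5 (CYP26B1, DHRS3, and RDH10), against 31.0% of all genes. With ATRA the transcripts of the hydroxylase and of the retinaldehyde reductase were more abundant and those of the retinol dehydrogenase less abundant, while those of the ALDH1A genes measured were close to the detection limit in both groups.

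CYP26B1 transcripts were counted 2766, 2667, and 2920 times in the control libraries and 158461, 177253, and 159006 times in the ATRA libraries. Every ATRA library lay far above every control library, and the spread within each group was small beside the gap. The level rose from 87.5 ± 4.46 to 3842 ± 176 CPM (SD, n = 3 each), or 43.9-fold. Its log₂FC was 5.46 (standard error 0.0740, adjusted p = 1.55e-20 by edgeR's quasi-likelihood test). As a share of all counts, before any scaling factor, CYP26B1 took 0.00741% ± 0.000358 (SD, n = 3) of the control libraries and 0.454% ± 0.0247 (SD, n = 3) of the ATRA libraries. The related hydroxylase gene CYP26A1, listed as LOC102175265, had 0 counts throughout the control group and reached 0, 1, and 3 counts with ATRA. A change of CYP26A1 was not detectable at this depth. The limit that a count of 0 allows is 3 counts. This stands for 0.0927 to 0.0967 CPM in a control library and 0.0680 to 0.0725 CPM in an ATRA library.

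**Figure D1:**
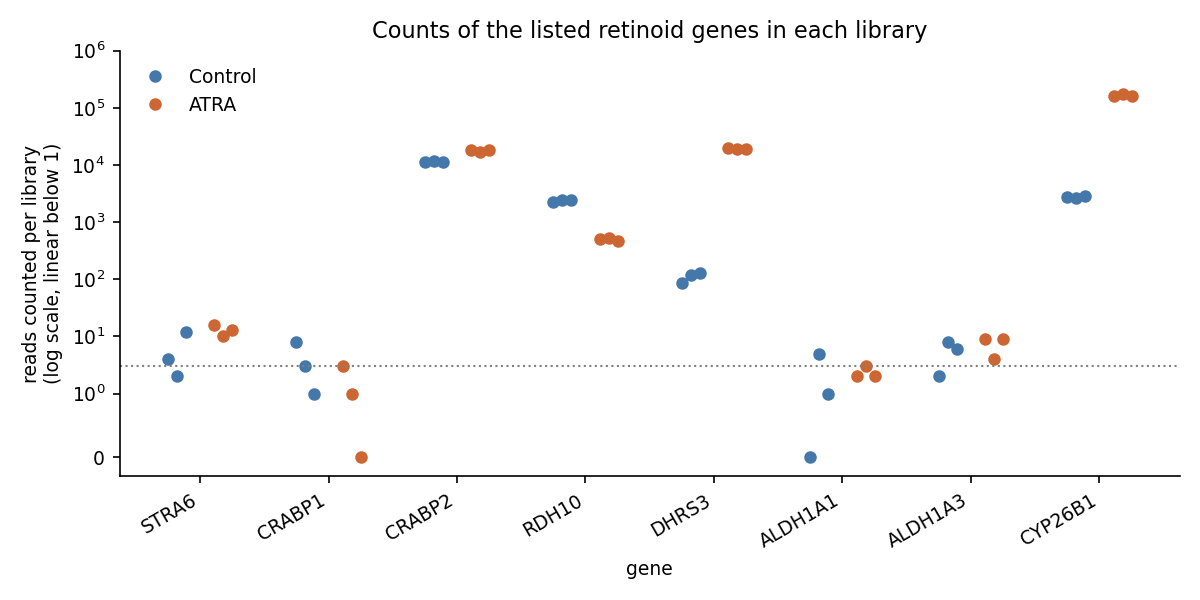
Reads counted on each of the 8 listed genes (vertical axis, log scale that is linear below 1) in the 3 control libraries (blue) and the 3 ATRA libraries (orange), 1 point per library, with a dotted line at 3 counts. The groups are apart for CYP26B1, DHRS3, CRABP2, and RDH10, and STRA6, CRABP1, ALDH1A1, and ALDH1A3 have at most 16 counts in any library.

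DHRS3, the reductase that returns retinaldehyde to retinol, had 86, 118, and 128 counts in the control libraries and 20093, 18720, and 19192 with ATRA. Its counts were low in all control libraries and, in each ATRA library, far above them, with no overlap. Its normalized level was 3.47 ± 0.627 CPM in the control group and 451 ± 23.0 CPM with ATRA (SD, n = 3 each). The fold change was 129.7, with a log₂FC of 7.02 (standard error 0.0969, adjusted p = 1.84e-20).

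RDH10, the dehydrogenase that acts in the opposite direction on the same pair of compounds, had 2245, 2449, and 2428 counts in the control libraries and 499, 524, and 473 in the ATRA libraries. All ATRA libraries lay below all control libraries. The level fell from 74.5 ± 1.92 to 11.6 ± 0.234 CPM (SD, n = 3 each), 6.41-fold lower, with a log₂FC of -2.68 (standard error 0.0713, adjusted p = 1.01e-16). The reductase and the dehydrogenase thus moved in opposite directions under TMM, RLE, and upper quartile scaling and with library size only.

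Ratios of a pair of genes within a library are free of the scaling between libraries. They do depend on transcript length, so only their change between groups was read. For each read on RDH10 there were 0.0383, 0.0482, and 0.0527 reads on DHRS3 in the control libraries and 40.3, 35.7, and 40.6 reads in the ATRA libraries. The log₂ ratio was -4.44 ± 0.238 in the control group and 5.28 ± 0.103 with ATRA (SD, n = 3 each), a difference of 9.72, or 843-fold. The ratio of CYP26B1 to DHRS3 moved the other way, because DHRS3 rose by the larger factor. For each read on DHRS3 there were 32.2, 22.6, and 22.8 reads on CYP26B1 in the control libraries and 7.89, 9.47, and 8.29 in the ATRA libraries. The difference of the log₂ ratio was -1.58, from 4.67 ± 0.290 to 3.09 ± 0.136 (SD, n = 3 each). The groups did not overlap in either ratio, and each gave p = 0.1 by a two-sided exact permutation test (0.2 after adjustment over 4 ratios), the smallest p that 3 libraries against 3 allow.

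**Figure D2:**
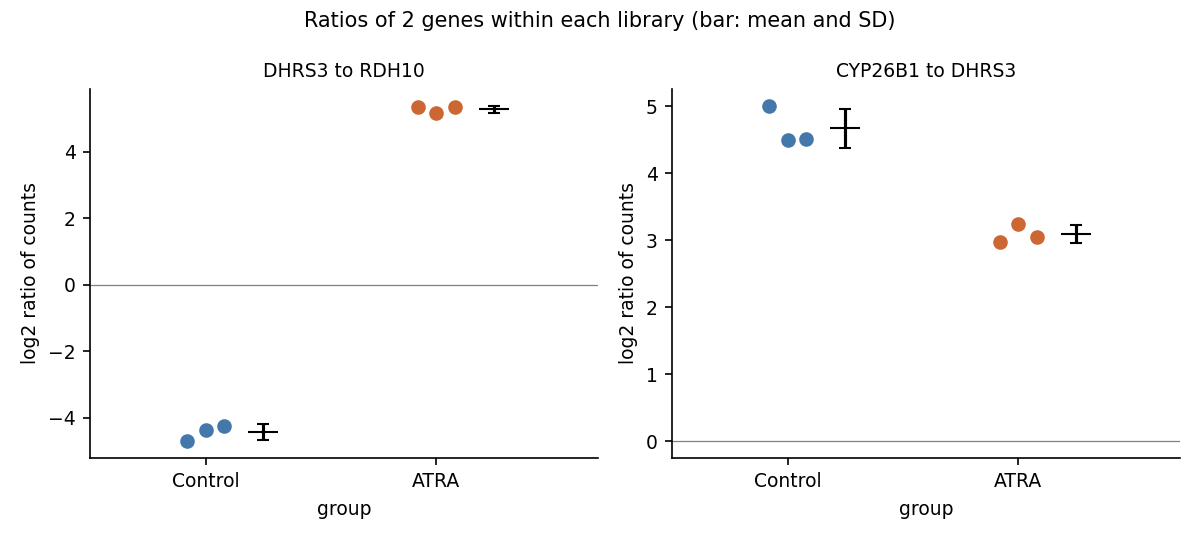
Log₂ ratio of the counts of DHRS3 to RDH10 (left) and of CYP26B1 to DHRS3 (right) within each library, 1 point per library, for the control group (blue) and the ATRA group (orange), with the mean and SD in black. The first ratio goes from -4.44 to 5.28 and the second from 4.67 to 3.09, with no overlap between the groups.

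The ALDH1A genes, which encode the enzymes of the last step of synthesis, were near the limit of detection. ALDH1A1 had 0, 5, and 1 counts in the control libraries and 2, 3, and 2 in the ATRA libraries. ALDH1A3 had 2, 8, and 6 counts in the control libraries and 9, 4, and 9 in the ATRA libraries. The counts of the groups overlapped for both genes, and both were below the expression filter. Fitted without that filter, they had an adjusted p of 0.863 and 0.976 by edgeR's quasi-likelihood test. A change in either gene was therefore not detectable at a depth where the group means were 0.0619 and 0.0542 CPM for ALDH1A1 and 0.166 and 0.172 CPM for ALDH1A3. The ratio of ALDH1A3 to ALDH1A1 rested on so few reads that leaving out single libraries turned its direction, and no order of the ALDH1A genes was drawn from it.

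The binding proteins were measured at very different depths. CRABP2 had 11282, 11647, and 11169 counts in the control libraries and 18618, 16823, and 18158 in the ATRA libraries, with no overlap. Its normalized level was 357 ± 8.30 CPM in the control group and 417 ± 31.1 CPM with ATRA (SD, n = 3 each), or 1.17-fold higher. The log₂FC was 0.22 (standard error 0.0614, adjusted p = 0.00285). This rise was small beside the dependence on scaling. With library size only the log₂FC of CRABP2 was 0.70, on a scale where the median of all genes was 0.52. CRABP2 stood 0.19 above that median both with library size only and with TMM. A change of scaling moves every gene and the median by nearly the same amount, so this agreement was set in advance. R's t.test function, the one named in the study's methods, was used here on log₂(CPM + 1) with adjustment over all tested genes. It gave an adjusted p of 0.0842 for CRABP2, short of the threshold used here. The study's own thresholds were an unadjusted p under 0.05 and an absolute log₂FC above 1.

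CRABP1 had 8, 3, and 1 counts in the control libraries and 3, 1, and 0 counts in the ATRA libraries. The groups overlapped, and the gene was not tested in the main comparison. Fitted without the expression filter, it had an adjusted p of 0.0763. The ratio of CRABP2 to CRABP1 was available in 3 control and 2 ATRA libraries and differed by 1.37 on the log₂ scale (exact permutation test, two-sided, p = 0.4, adjusted p = 0.533), less than the SD of 1.49 among the control libraries. This difference rested on few CRABP1 reads, being 0.63 without Control replicate 1, 2.13 without Control replicate 3, 2.09 without ATRA replicate 1, and 0.66 without ATRA replicate 2.

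**Figure D3:**
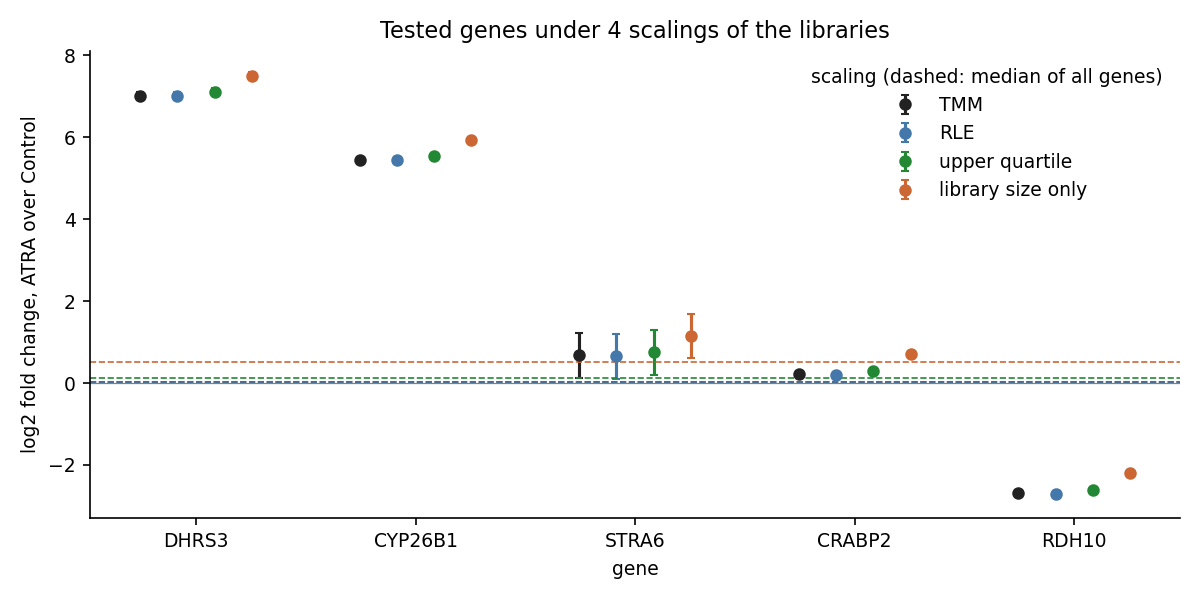
Log₂ fold change of the 5 tested genes (vertical axis, ATRA over control) with its standard error under TMM, RLE, upper quartile scaling, and library size only, with the median of all tested genes under each scaling as a dashed line in the same colour. DHRS3 and CYP26B1 lie far above every dashed line, RDH10 lies below, and CRABP2 lies 0.19 above the median. A change of scaling moves each gene and the median together, so these distances hardly change by construction.

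STRA6, the retinol receptor named for its induction by retinoic acid in other cells, had 4, 2, and 12 counts in the control libraries and 16, 10, and 13 in the ATRA libraries. Control replicate 3 overlapped the ATRA libraries and the other control libraries were lower. The level was 0.188 ± 0.164 CPM in the control group and 0.304 ± 0.0723 CPM with ATRA (SD, n = 3 each). The log₂FC of 0.68 (standard error 0.547) did not pass the test (adjusted p = 0.262). The result rested on that single library, since without Control replicate 3 the log₂FC was 1.64 with an adjusted p of 0.0365. In that fit STRA6 passed the expression filter only through its ATRA libraries, so this p was not read as support for a change.

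Among the 12588 tested genes, DHRS3 held rank 38 and CYP26B1 rank 84 by log₂FC from the highest, while RDH10 held rank 699 from the lowest. The absolute log₂FC was larger than that of 99.1% of the tested genes for DHRS3, 98.1% for CYP26B1, and 91.1% for RDH10. For STRA6 and CRABP2 the shares were 55.2% and 20.8%, in the bulk of the distribution.

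**Figure D4:**
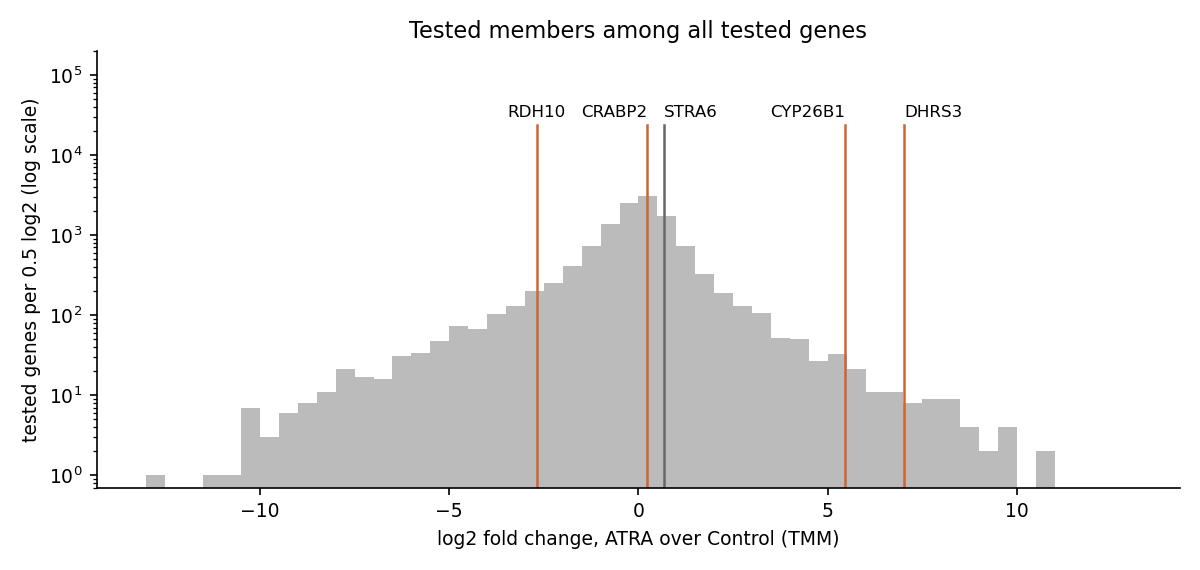
Number of tested genes in each 0.5-wide bin of log₂ fold change (grey bars, log scale), with the 5 tested members as vertical lines (orange when called, grey when not). DHRS3 (7.02) and CYP26B1 (5.46) stand in the upper tail, RDH10 (-2.68) in the lower part, and CRABP2 (0.22) and STRA6 (0.68) near the centre.

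The genes most like CYP26B1 in their pattern over the 6 libraries were sought among 10683 tested genes with a mean of at least 1 CPM. The measure was the Euclidean distance of log₂(CPM + 0.5) from each gene's own control mean. Genes listed under a LOC number, other than CYP26B1 itself, were left out of this search. The 5 nearest were C15H11orf96 (distance 0.390), SLCO4A1 (0.439), SLC38A3 (0.447), ABCC3 (0.456), and C2CD4B (0.492), where the median gene was at 9.43. SLCO4A1 encodes an organic anion transporter, SLC38A3 an amino acid transporter, and ABCC3 an export pump for organic anions. ABCC3 rose from 14.1 to 539 CPM and C15H11orf96 from 8.97 to 397 CPM, with a fitted log₂FC of 5.26 and 5.47. SLCO4A1, SLC38A3, and C2CD4B were below 1 CPM in the control group, where the added 0.5 lowers the change, and their fitted log₂FC was 6.25, 5.79, and 7.43. DHRS3 was at a distance of 2.45, at rank 34. With 6 libraries in 2 groups, this measure is set mainly by the size of the difference between the groups.

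A list of 38 other genes of the retinoid pathway was examined beside the members. Rows were found for 29 of them (30 rows, since RDH14 has a pair), 15 rows were tested, and 13 were called, 4 higher and 9 lower with ATRA. This was 86.7% of those tested, against 79.7% of all genes. CD36, among the rows called higher, passed the expression filter only through its ATRA libraries. The median log₂FC of the 15 was -0.63, against 0.04 for all genes. With library size only, 6 were called higher and 8 lower, and their median was -0.15 against 0.52.

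Among the tested genes of retinol transport and uptake, RBP4 and SCARB1 were lower with ATRA. CD36 was higher, at a mean of only 0.37 CPM, below the 1 CPM set for named genes. RBP4, which encodes the carrier that brings retinol to STRA6, had 2192, 1986, and 2098 counts in the control libraries and 679, 599, and 582 with ATRA, a log₂FC of -2.19 (standard error 0.0810). SCARB1, a scavenger receptor that takes up carotenoids and cholesterol from lipoproteins, had a log₂FC of -0.86. The lipid scavenger receptor gene CD36 was named after its values were seen. It had 2, 1, and 2 counts in the control libraries and 16, 38, and 34 with ATRA. Only the ATRA libraries brought it past the expression filter, so its call as higher was not read as a result. The groups did not overlap for RBP4 or SCARB1, which also held for 80.1% of all genes tested.

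Storage and carotenoid genes were divided. DGAT1, an acyltransferase that can esterify retinol, and RETSAT, the retinol saturase, were higher with a log₂FC of 0.90 and 0.68. BCO2, which cleaves carotenoids, fell from 786, 826, and 736 counts to 158, 212, and 138 counts, a log₂FC of -2.64 (standard error 0.120). The lipase gene LIPE, which can release retinol from its esters, had a log₂FC of -2.07 on 12 to 65 counts per library. PNPLA4 had a log₂FC of -0.01 and was not called, and its sign turned with upper quartile scaling and with library size only.

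Among the other alcohol and retinol dehydrogenase genes, 5 of 6 tested rows were called lower with TMM, against 38.7% of all genes tested. DHRS7, a reductase of the same enzyme family as DHRS3, fell by 1.85 on the log₂ scale (standard error 0.107). RDH13 fell from 207, 239, and 190 counts to 76, 123, and 83 counts. RDH11 fell by 0.80 and ADH5, listed as LOC102186197, by 0.63 on the log₂ scale. DHRS4, listed as LOC102169480, had -0.23 with TMM, was not called with upper quartile scaling, and had 0.24 with library size only, so its direction depended on the scaling. RDH14, listed as LOC102185579, was higher with a log₂FC of 0.47, and its value is uncertain because a second row of that symbol (0 to 2 counts per library) could share its reads. FABP5, a fatty acid binding protein that also carries ATRA, had a log₂FC of -0.02 (adjusted p = 0.892) with TMM and was called higher at 0.46 with library size only.

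**Figure D5:**
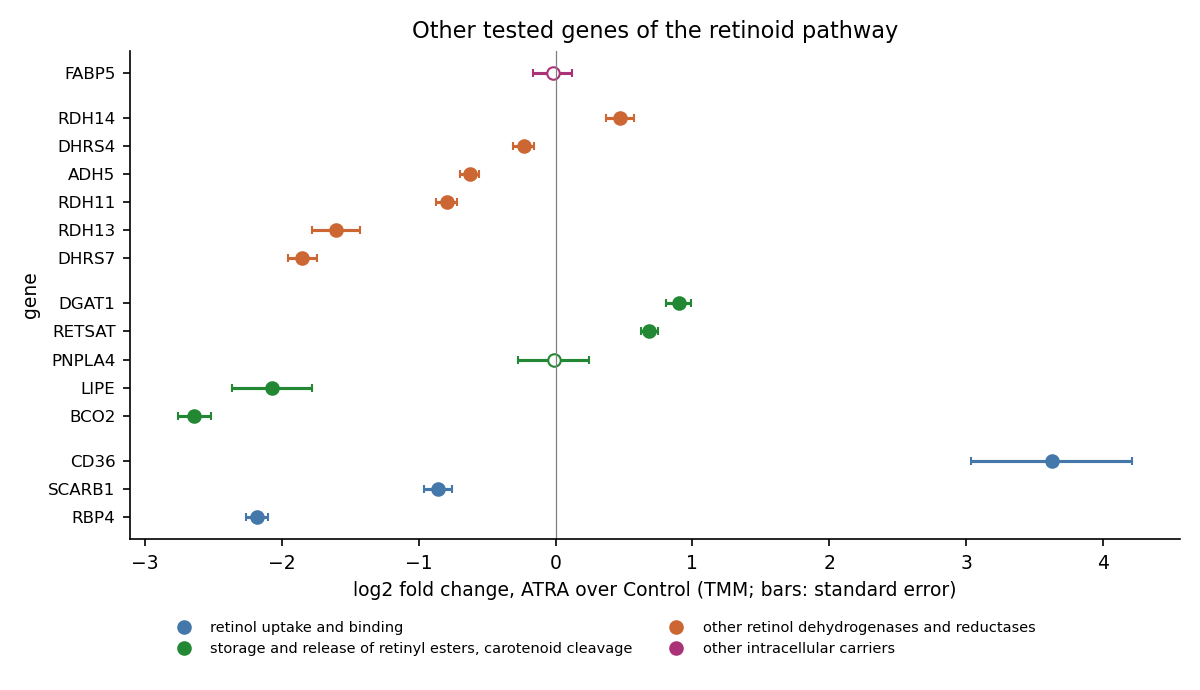
Log₂ fold change with standard error (horizontal axis, TMM scaling) of the 15 other tested genes of the retinoid pathway, coloured by role, filled when called and open when not. RBP4, BCO2, LIPE, DHRS7, and RDH13 lie below -1, CD36 lies above 3 on 1 or 2 counts per control library, PNPLA4 and FABP5 lie at about 0, and DHRS4 (-0.23) changes sign with library size only.

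In the order of genes on the ARS1.2 assembly, no annotated gene overlapped any of the 9 members. The nearest listed gene on each side of the called members was named for its position after the data were seen. Genes without a row in the counts were skipped. The values of these neighbours differed in size from those of the members, and some had the same direction and others the opposite. Beside CYP26B1, EXOC6B had a log₂FC of -0.43 (0.04 with library size only) and DYSF had 1.35. Beside DHRS3, TNFSF4, a cytokine of T cell stimulation, had -6.00 and VPS13D had 0.46. Beside RDH10, STAU2 had 0.77 and RPL7 had -0.12 (not called, and 0.35 with library size only). NES and ISG20L2, beside CRABP2, had 0.68 and 0.51, both above the 0.22 of CRABP2. The build used for the counts is not given in the sources used here, so no coordinates are reported.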

How the data were processed

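RNA-seq was analysed in 3 control and 3 ATRA-treated libraries. The study's methods state that the cells came from 3 animals, that poly(A) RNA was selected by oligo(dT), and that fastp and TrimGalore trimmed the reads. The submitters' processing notes name HISAT2, featureCounts, and DESeq2, with no versions or build. The authors deposited whole-number read counts per gene, not normalized, and how reads of near-identical genes were assigned is not given in the sources used here. All 15944 names matched the RefSeq gene table (ARS1.2), whose lengths are genomic spans, so levels were not compared between genes.

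The members and lists were chosen with earlier results of these data known. 1 gene of the pathway list is not reported here and was left out of the list's counts and median. Genes passing edgeR's filterByExpr (12588) were scaled by TMM and tested on all 6 libraries with edgeR's robust quasi-likelihood test, two-sided, without a covariate, and with Benjamini-Hochberg adjustment over all tested genes. Standard errors are log₂FC divided by the root of the F value, without sign. The prior count was 0.125. A count of 0 allows up to 3 counts per library, a limit that covers counting error only. Ratios were tested by exact permutation. All members were named, with up to 12 other pathway genes (adjusted p under 0.05, at least 1 CPM, largest log₂FC) and the 5 genes most like CYP26B1. Alternatives were other scalings, filters, prior counts, DESeq2, R's t.test function on log₂(CPM + 1), a block for the replicate number, and leaving out 1 library at a time. The fits were tested on simulated data in which a small share of genes changed, equally up and down. That test does not cover the broad change seen in these libraries. Software was R 4.3.3, edgeR 4.0.16, DESeq2 1.42.0, Python 3.11.15, SciPy 1.17.1, and matplotlib 3.10.9.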

Additional observations from a re-analysis of the deposited data

How the results depend on the processing

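CYP26B1, DHRS3, and RDH10 kept their direction and their call under every scaling, filter, test, prior count, block, and left-out library tried, with a log₂FC of 5.41 to 5.94, 6.66 to 7.50, and -2.71 to -2.20. From group mean CPM after adding 1 to each, an alternative chosen after seeing the data, DHRS3 had 6.66, RDH10 -2.58, and STRA6 0.13. With R's t.test function CRABP2 had 0.22 and lost its call (adjusted p = 0.0842). Leaving out each library gave 0.18 to 0.28 for CRABP2, 0.25 to 1.64 for STRA6, and -1 to 0.91 for the log₂ ratio of ALDH1A3 to ALDH1A1. That ratio differed by -0.05 with all libraries (exact permutation test, p = 0.8) and changed sign without Control replicate 3 (0.91) and without ATRA replicate 2 (0.54). The calls over all genes were 7921 higher and 2861 lower with library size only, and 1730 and 2174 by an absolute log₂FC above 1 with an unadjusted p under 0.05. With the replicate number as a block, 5123 genes were higher and 4869 lower, and no member's call changed. Same-numbered libraries deviated from their group means with correlations over genes of 0.0892, 0.0299, and -0.0764, so the number was not taken as a pairing. Which library came from which animal is not given in the sources used here, so the p-values measure the spread between these samples, part of which may be technical. The share of each ALDH1A gene was not computed, since no transcript lengths were at hand, and STRA6 was below the filter of 1 CPM in 3 libraries.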

Other observations

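Some genes of the pathway list were below the expression filter, and their values, singled out after they were seen, are given only as counts. AOX1, an aldehyde oxidase, had 0, 1, and 1 counts in the control libraries and 8, 11, and 1 in the ATRA libraries. DHRS9, a retinol dehydrogenase, had 0, 1, and 2 counts and then 19, 3, and 4, so that ATRA replicate 1 held most of its reads. CYP1B1, a cytochrome P450 that can oxidise retinol, had 3, 5, and 6 counts in the control libraries and 0, 0, and 2 with ATRA.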
